A study of Mus musculus with 3 samples.

Results

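Beta cells of the mouse islet were defined by their transcripts. Of 7490 barcodes kept for analysis, 854 (11.4%) met the rule for beta cells and are called members here. A member gave at least 30% of its unique molecular identifiers (UMIs, each standing for 1 counted transcript) to the insulin genes Ins1 and Ins2. It gave under 3% to each of Gcg, Sst and Ppy, which encode the hormones of the other islet endocrine types. It also had at least 1000 detected genes and at least 2 of Mafa, Nkx6-1, Slc2a2, G6pc2, Ucn3 and Pdx1. A barcode is the tag of a droplet, and those with fewer than 500 genes or over 15% of UMIs from the mitochondrial genome had been dropped. The islets came from 3 female NOD-SCID mice aged 10 to 11 weeks and labelled non-diabetic, 1 animal and 1 droplet-based 3′ RNA library each. All 3 animals carry the same strain background, whose scid mutation leaves mature T and B lymphocytes out while myeloid cells remain. The labels name no treatment, transgene or injury, so the mice form 1 group and the comparisons lie between classes of barcodes of the same animals.

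Beta cells make, store and release insulin. Glucose enters through the transporter encoded by Slc2a2, its oxidation raises ATP, ATP closes the KATP channel, and the calcium that then enters drives exocytosis of insulin granules. Proinsulin is folded in the endoplasmic reticulum (ER) with the help of chaperones and disulfide enzymes, and is cut by the convertases Pcsk1 and Pcsk2 and by the carboxypeptidase Cpe. Pdx1, Mafa, Nkx6-1 and Neurod1 encode transcription factors that keep insulin genes active, and a small set of widely expressed genes, such as Ldha and Slc16a1, is known to be kept low in mature beta cells.

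The members numbered 96, 414 and 344 in mice 1, 2 and 3. These were 8.38% (95% exact binomial interval 6.84 to 10.1), 15.3% (13.97 to 16.7) and 9.45% (8.52 to 10.4) of the kept barcodes, with a mean of 11.0% ± 3.73 (SD, n = 3). The libraries held 32389170, 48076507 and 57849496 UMIs. Members were deep: the median member had 64076.5, 31969 and 34399.5 UMIs in mice 1, 2 and 3, against 5287, 4840 and 10096 UMIs in all other kept barcodes. Its detected genes numbered 4968.5, 3382.5 and 3958. Another 723 kept barcodes had 30% or more insulin but were not members (99, 532 and 92 per mouse). Of these 514 had fewer than 1000 genes, and 286 passed 3% Gcg. Mouse 2 held most of them. Mice 1 and 2 shared 148 deposited barcode sequences, against 9 and 13 for the other pairs, and 15 members carried a barcode that also occurred in another library. Intervals cover counting error only.

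Members close to the thresholds were shallower than the rest. The 24 members with 30 to 35% insulin had a median of 8023 UMIs, and the 22 barcodes just outside, at 25 to 30%, had 5977.5. The 40 members with 1000 to 1100 genes had a median of 61.5% insulin, and the 56 insulin-rich barcodes with 900 to 1000 genes had 55.7%. Of the members, 619 (72.5%) carried all 6 marker genes of the rule and 18 carried only 2 of them. Their median depths were 43638 and 7890.5 UMIs.

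**Figure D1:**
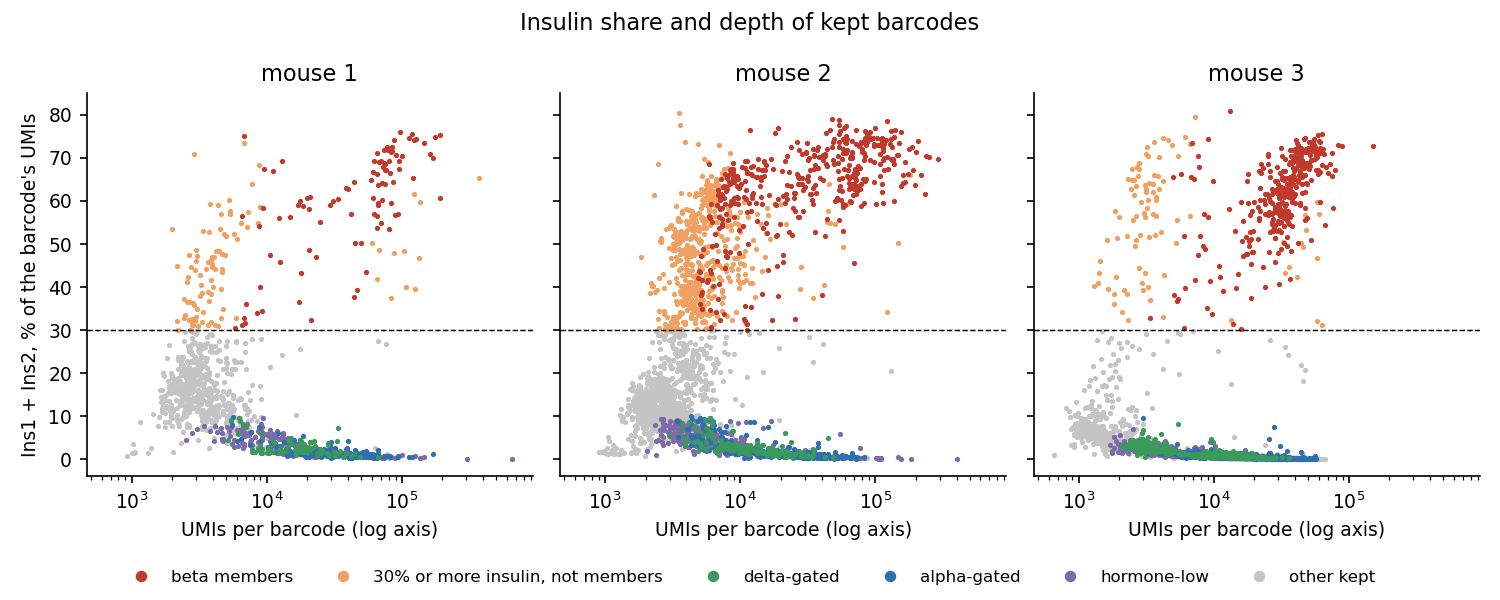
Share of UMIs from Ins1 and Ins2 (vertical axis, percent) against UMIs per barcode (horizontal axis, log scale) for each kept barcode of the 3 mice, coloured by class; the dashed line marks 30%. Members (red) lie above the line at mostly higher depth, and the insulin-rich barcodes outside the rule (orange) lie at lower depth and are most numerous in mouse 2.

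Insulin was 65.3%, 67.8% and 64.0% of all UMIs of the members (65.7% ± 1.92, SD, n = 3). The rule chose members by this share, so it is given as a description. Ins2 contributed 45.7%, 46.5% and 46.5%, and Ins1 19.6%, 21.3% and 17.6%. The Ins2 share was nearly equal in the 3 animals, while Ins1 was lowest in mouse 3. Ins2 gave 2.33, 2.18 and 2.65 UMIs for each UMI of Ins1. Ins1 passed Ins2 in 3, 1 and 0 members. The proteins are close paralogs and reads from identical stretches of the transcripts may have been split or dropped by the authors' counting, which limits the ratio. In barcodes with under 10% of UMIs from the 5 hormone genes (hormone-low barcodes, 1239 with at least 1000 genes), insulin still gave 1.64%, 1.81% and 0.936%.

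Iapp, which encodes amylin, the peptide released with insulin, was not part of the rule. It gave 2.85%, 2.84% and 2.61% of member UMIs (2.76% ± 0.136, SD, n = 3), close together in the 3 mice. Barcodes gated on somatostatin (delta-gated, at least 5% Sst, under 10% insulin, under 3% Gcg and Ppy) had 2.77% ± 0.277. Barcodes gated on glucagon (alpha-gated, at least 10% Gcg, under 10% insulin, under 3% Sst and Ppy) had 0.0697%. The upstream sequences of Ins1, Iapp and Ucn3 are shown because these genes encode secreted peptides. Ins1 and Iapp were abundant in members, while Ucn3 gave 0.0182% of member UMIs on average. Each run is the 250 bases before the RefSeq start on GRCm38.p6, 5′ to 3′ on the gene's strand: chr19:52264047-52264296 (plus) for Ins1, chr6:142298175-142298424 (plus) for Iapp and chr13:3945350-3945599 (minus) for Ucn3. Capitals mark TAAT or its reverse complement ATTA, the core read by homeodomain proteins such as Pdx1 and Nkx6-1, and CATCTG or its reverse complement CAGATG, an E-box of the kind read by Neurod1 with its partners. Overlapping matches are both marked.
Ins1: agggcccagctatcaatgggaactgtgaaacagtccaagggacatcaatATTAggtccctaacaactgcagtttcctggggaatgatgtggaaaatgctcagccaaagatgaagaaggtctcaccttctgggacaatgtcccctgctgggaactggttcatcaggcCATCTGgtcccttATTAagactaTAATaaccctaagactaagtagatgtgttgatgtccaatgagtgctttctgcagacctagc
Iapp: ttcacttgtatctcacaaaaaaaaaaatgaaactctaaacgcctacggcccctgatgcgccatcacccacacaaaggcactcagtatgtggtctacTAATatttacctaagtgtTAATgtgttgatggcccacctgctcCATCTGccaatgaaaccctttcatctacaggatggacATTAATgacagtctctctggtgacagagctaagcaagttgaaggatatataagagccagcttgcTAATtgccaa
Ucn3: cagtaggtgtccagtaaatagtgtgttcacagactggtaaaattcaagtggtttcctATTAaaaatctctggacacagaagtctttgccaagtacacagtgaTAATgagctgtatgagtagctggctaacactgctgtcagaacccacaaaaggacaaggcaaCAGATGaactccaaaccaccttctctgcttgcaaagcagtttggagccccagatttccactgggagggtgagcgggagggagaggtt

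The Ins1 window held 3 TAAT matches on either strand and 1 E-box, the Iapp window 5 and 1, and the Ucn3 window 2 and 1. TAAT is short and common: 54.9% of 32851 RefSeq windows of the same length held it on 1 strand or the other, and 14.4% held CATCTG. Of 19 genes looked up (Ins1, Ins2, Iapp, the 6 marker genes of the rule and the 10 genes with the largest increase below), 16 had windows, 24 in all, of which 12 held TAAT and 7 (29.2%) held CATCTG. Ins2, Mafa and Bace2 had no entry. A match describes letters in this window and is not evidence of binding.

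The 6 marker genes of the rule are likewise given without a test. Their levels are counts per 1000000 UMIs outside the 5 hormone genes (CPM), scaled by TMM, a normalisation that equalises the bulk of genes between samples. Slc2a2, the glucose transporter, stood at 1002, 992 and 990 CPM in the members. It was at 14.01, 12.2 and 5.03 CPM in alpha-gated barcodes and at 117, 144 and 63.6 CPM in hormone-low barcodes, 9.19-fold below the members on average. G6pc2, an islet glucose-6-phosphatase, stood at 978, 950 and 881 CPM against 39.8, 24.2 and 13.2 CPM in alpha-gated barcodes. Mafa stood at 939, 818 and 680 CPM, Nkx6-1 at 440, 410 and 437 CPM, and the peptide gene Ucn3 at 467, 442 and 589 CPM. For these genes members lay above alpha-gated, delta-gated and hormone-low barcodes in every mouse. Pdx1 differed least from delta-gated barcodes, with 225, 213 and 235 CPM in members and 113, 123 and 124 CPM there (1.87-fold).

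Detection in single cells depended on depth. With each barcode thinned to 3000 UMIs, of which insulin took most in members, a Slc2a2 UMI was seen in 61.5%, 62.3% and 66.9% of members, against 96.9%, 95.9% and 98.8% before thinning. Mafa was seen in 54.3% ± 3.64, Nkx6-1 in 37.9% ± 5.21, G6pc2 in 62.1% ± 8.79 and Pdx1 in 22.1% ± 2.19 (SD, n = 3). Ucn3 was seen in 47.9%, 28.0% and 46.8% of thinned members, lowest in mouse 2. In thinned hormone-low barcodes the shares were 12.98% ± 5.13 for Slc2a2, 6.38% ± 3.04 for Mafa and 1.61% ± 0.710 for Ucn3. These barcodes were shallower before thinning, with medians of 11413.5, 7043 and 5988.5 UMIs, and 110 of them were left out for having too few UMIs.

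**Figure D2:**
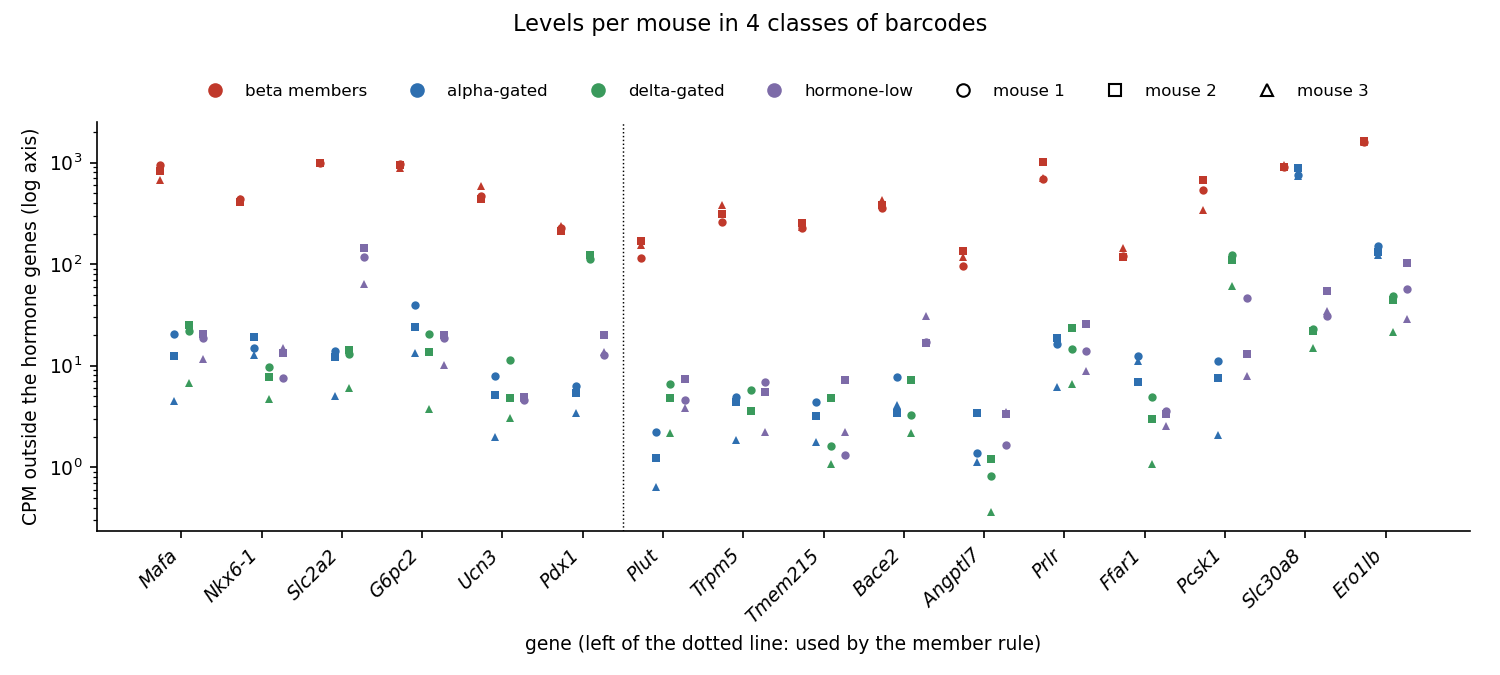
Level of 16 genes (CPM outside the hormone genes, log axis) in beta members, alpha-gated, delta-gated and hormone-low barcodes, with 1 point per mouse; the 6 genes left of the dotted line were used by the member rule. Members stand above the other classes for 15 of these genes, and Slc30a8 stood close to them in alpha-gated barcodes.

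Members were then compared with all other kept barcodes on genes that the rule did not use. UMIs were summed per mouse and class and tested with edgeR's quasi-likelihood test with the mouse as a block and Benjamini-Hochberg adjustment. Such a p-value measures how the difference varied over 3 mice. It leaves out that the same cells made the classes. Of 13775 genes, 3444 (25.0%) were higher and 4120 (29.9%) lower in members at an adjusted p under 0.05, which is 54.9% in either direction. Counts for each gene group below in this comparison are read against these shares. Against alpha-gated barcodes the shares of all genes were 19.0% higher and 19.2% lower, and against delta-gated barcodes 17.7% and 17.6%. With each barcode thinned to 3000 UMIs, 2460 genes were called against all other barcodes in place of 7564. Thinned counts of a gene group are therefore not read against the shares given here. The median log2 difference of all genes was -0.03.

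The 10 largest increases belonged to genes with an average of 50 CPM or more in members. Trpm5, a calcium-activated cation channel, stood at 261, 312 and 388 CPM in members and at 21.3, 25.1 and 7.10 CPM in all other barcodes, a log2 difference of 4.33 ± 0.75 (SE, adjusted p = 0.043). Tmem215 stood at 231, 257 and 233 CPM against 16.7, 24.2 and 4.3995 CPM (4.25 ± 0.72, adjusted p = 0.041). Plut, a long noncoding RNA gene antisense to and upstream of Pdx1, stood at 116, 171 and 156 CPM against 10.6, 15.6 and 3.28 CPM (4.14 ± 0.68, adjusted p = 0.039). The other barcodes were lowest in mouse 3 for each of these genes. Plut (chromosome 5, 147228596 to 147271521, minus strand, GENCODE M21) overlaps Pdx1 (147269959 to 147275848, plus strand), and how the counting used strand is not given in the sources used here, so their reads may not be fully separable.

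Angptl7, Tmigd3, Slco1a6, an organic anion transporter, Papss2, which makes the donor for sulfation, Bace2, a protease of the islet cell membrane, Cntfr and Gpr158 completed the 10 largest increases, with log2 differences between 3.70 and 4.13. Bace2 stood at 358, 387 and 436 CPM against 31.4, 40.5 and 15.9 CPM, and Cntfr, a cytokine receptor subunit, at 98.1, 90.2 and 115 CPM against 9.59, 8.82 and 5.14 CPM. The insulin-rich barcodes outside the rule were part of the other barcodes, where insulin gave 8.18%, 11.0% and 1.91% of UMIs. Without barcodes of 30% or more insulin the 10 differences rose to between 4.24 and 5.44. Of the 10, 9 lost the adjusted p of 0.05 without mouse 1 and 9 without mouse 2, leaving Cntfr past it, and 5 lost it after thinning. Their differences then lay between 3.86 and 4.68, between 3.95 and 4.72, and between 2.89 and 3.67. Without the filter on low counts 7 lost it.

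The 10 largest decreases ran to genes with next to no UMIs in members. Msmp stood at 0.991, 1.24 and 0.202 CPM in members and 350, 385 and 93.5 CPM in all other barcodes, a log2 difference of -8.36 ± 0.15 (adjusted p = 1.77e-14). The list went on with Cp, which encodes ceruloplasmin, Acta2 of contractile cells, the duct transcription factor gene Sox9, Igfbp3, Lcn2, the alpha cell factor gene Irx1, Ces1d, the endothelial gene Esm1 and the myeloid gene Cd14. Cp stood at 0, 1.71 and 0.202 CPM in members against 243, 272 and 110 CPM. Members stood below 2 CPM for each of these 10 genes in every mouse.

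**Figure D3:**
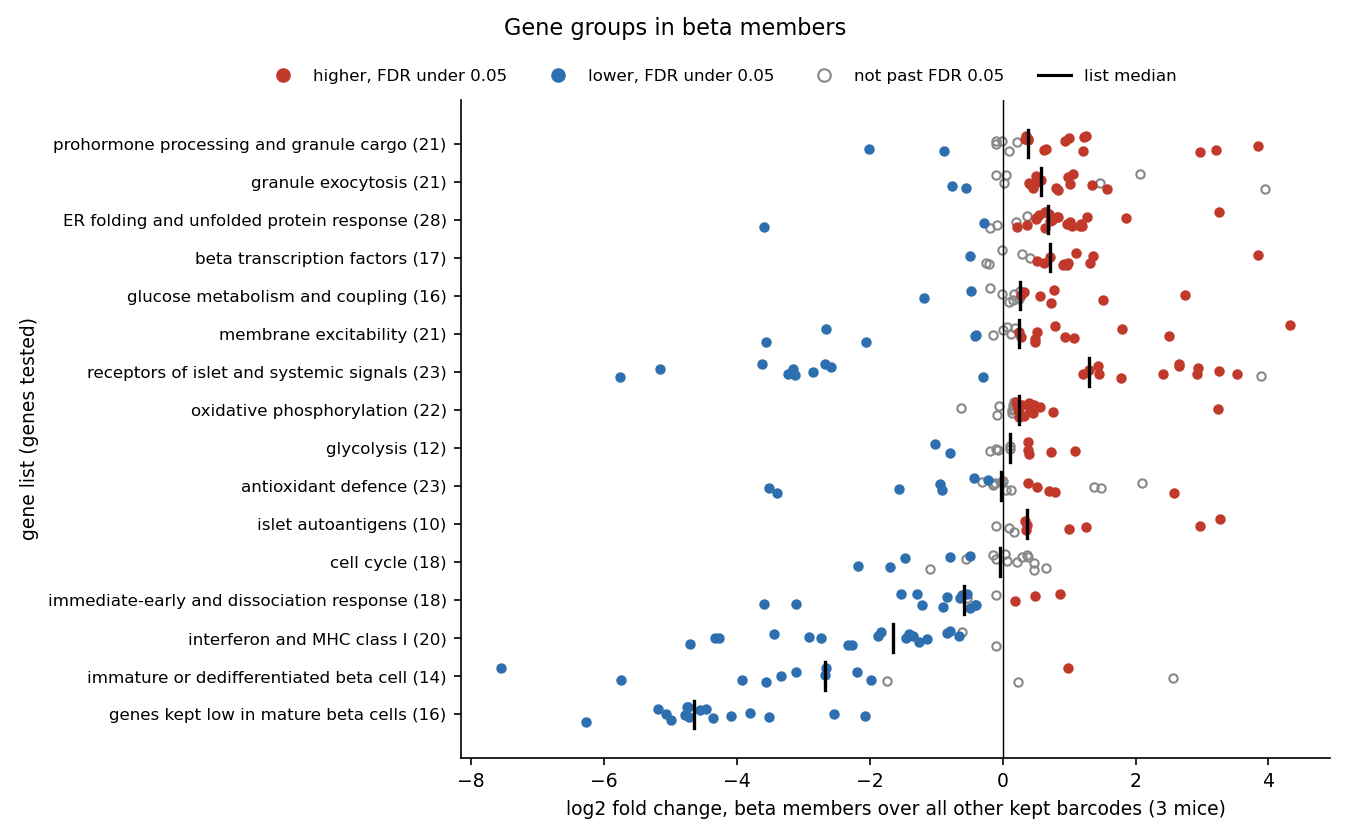
Log2 fold change of beta members over all other kept barcodes for the tested genes of 16 lists (1 point per gene; filled red, higher and filled blue, lower at an adjusted p under 0.05; open grey, not past it; black bar, list median). Lists for secretion and ER folding lie to the right of 0, and those for genes kept low in beta cells, immature cells and interferon response lie to the left.

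Transcription factor genes of beta cells outside the rule were mostly higher, 11 of 17 tested, with 1 lower and a list median of 0.71. Neurod1 stood at 253, 240 and 282 CPM in members and 119, 112 and 128 CPM in the other barcodes (1.11 ± 0.07, adjusted p = 8.29e-09). Insm1, Pax6, Hopx and Foxa2 were higher by 1.31, 0.91, 0.99 and 0.63 on the log2 scale. Mnx1, which keeps beta cells from taking a delta fate, was rare but stood apart, at 26.8, 22.3 and 19.95 CPM against 1.97, 2.84 and 0.610 CPM (3.84 ± 0.38). Isl1, shared by all islet endocrine types, was the member of the list that was lower, at 169, 192 and 151 CPM against 195, 253 and 276 CPM.

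Genes for making and storing the hormone followed. Of 21 genes of prohormone processing and granule cargo, 14 were higher and 2 lower, with a median of 0.38. After thinning 9 were higher. Pcsk1, the convertase that acts first on proinsulin, stood at 540, 672 and 343 CPM against 73.6, 97.3 and 21.5 CPM (3.21 ± 0.39, adjusted p = 0.020). Pcsk2, the convertase shared with alpha cells, did not pass the test, with 2999, 2677 and 2453 CPM in members against 3018, 2495 and 3280 CPM. Slc30a8, the zinc transporter of the granule, was higher at 913, 902 and 950 CPM against 385, 414 and 360 CPM. Vgf and the amidating enzyme gene Pam were lower, by -2.01 and -0.88.

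Of 28 genes of ER folding and the unfolded protein response, 22 were higher and 2 lower (median 0.68). Sdf2l1, an ER chaperone cofactor, stood at 366, 508 and 287 CPM against 102, 119 and 91.8 CPM (1.86 ± 0.09, adjusted p = 4.72e-10), with mouse 2 highest. Dnajc3, Dnajb11, P4hb and Calr were higher by 1.17, 1.01, 0.70 and 0.74. Ero1lb, the islet form of the oxidase that drives disulfide formation, stood at 1592, 1652 and 1619 CPM against 210, 252 and 91.5 CPM. The 2 lower members were Herpud1 (-0.29) and the stress factor gene Atf3, which stood at 55.0, 63.1 and 129 CPM against 825, 892 and 1116 CPM (-3.59 ± 0.20).

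Of 21 exocytosis genes, 13 were higher and 2 lower (median 0.58). The vesicle protein gene Syt13 stood at 538, 513 and 630 CPM against 182, 186 and 199 CPM (1.57 ± 0.08, adjusted p = 2.98e-10). Rab27a, Rab3a and Rab3d were higher by 1.01, 1.05 and 0.99. Against alpha-gated barcodes 6 of 21 exocytosis genes were higher and 3 lower, where 19.0% and 19.2% of all genes were. Against delta-gated barcodes 6 were higher and 2 lower (17.7% and 17.6% of all genes). Against hormone-low barcodes 18 were higher and 1 lower (30.2% and 33.9% of all genes). Of 21 genes of membrane excitability, 11 were higher and 5 lower (median 0.25). After thinning 3 of 20 were higher and 3 lower, and against delta-gated barcodes 6 of 21 were higher and 9 lower. Atp2a2, the calcium pump of the ER, stood at 1130, 940 and 1167 CPM against 199, 210 and 166 CPM (2.50 ± 0.12), and the calcium channel gene Cacna1d was higher by 0.94. The inositol trisphosphate receptor gene Itpr1 was lower at 40.6, 38.4 and 38.5 CPM against 152, 157 and 180 CPM, as were the sodium channel gene Scn3a (-2.65) and the potassium channel gene Kcnk3 (-3.57).

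Of 16 genes of glucose metabolism and its coupling to secretion, 7 were higher and 2 lower (median 0.25). After thinning 3 of 15 were higher, and without mouse 3 there were 4 lower. Gpd2, of the glycerol phosphate shuttle, stood at 103, 84.0 and 106 CPM against 40.2, 32.7 and 31.1 CPM (1.51 ± 0.10). Mdh1 and Idh1 were higher by 0.77 and 0.73, and the glutamate dehydrogenase gene Glud1 was lower by -1.19. Oxidative phosphorylation had 14 of 22 higher and 8 not past the test (median 0.24), led by Atp5g1 at 0.75. Without mouse 2 there were 6 higher, without the mouse as a block 6, and after thinning 2 of 20. Glycolysis had 5 of 12 higher and 2 lower (median 0.11), but 3 higher and 3 lower without mouse 2 (median -0.03) and 2 higher and 1 lower after thinning. Pkm was higher by 1.09, and Pfkp and Eno1 were lower by -1.01 and -0.80.

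Receptor genes moved both ways, 12 of 23 tested higher and 10 lower, or 10 of 15 higher and 3 lower after thinning. The muscarinic receptor gene Chrm3 stood at 37.7, 32.4 and 47.8 CPM against 6.81, 7.33 and 7.96 CPM (2.41 ± 0.14, adjusted p = 1.18e-09), and Sstr3 and Igf1r were higher by 1.30 and 1.202. The fatty acid receptor gene Ffar4 was lower, at 2.97, 5.89 and 4.23 CPM against 32.9, 35.9 and 52.8 CPM, as was Fgfr1 (-2.68). Ffar1, Gipr, Glp1r, Gcgr and Prlr were picked from the list after their values were seen. Ffar1, the other fatty acid receptor gene, stood at 122, 118 and 145 CPM against 17.7, 17.0 and 8.41 CPM. Glp1r, the target of incretin drugs, was rare at 8.92, 7.75 and 10.5 CPM against 1.70, 2.47 and 0.674 CPM. Prlr, the prolactin receptor gene, stood at 688, 1029 and 717 CPM against 79.1, 117 and 14.9 CPM. The Prlr difference did not pass the test (3.89 ± 0.87, adjusted p = 0.068).

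All 16 tested genes of the list known to be kept low in beta cells were lower in members (median -4.65). Ldha, lactate dehydrogenase A, stood at 0.496, 1.395 and 1.81 CPM against 59.0, 44.1 and 47.9 CPM (-5.08 ± 0.21, adjusted p = 3.71e-11). The repressor gene Rest and Tgm2, Arap2 and Oat were lower by -4.78, -4.35, -3.81 and -3.52. The 17 genes of the list summed to 23.6, 30.0 and 24.8 CPM in members, 160, 167 and 166 CPM in alpha-gated and 136, 114 and 161 CPM in delta-gated barcodes. Against alpha-gated barcodes 6 of 16 were lower. Against delta-gated barcodes 7 were lower and 1 higher.

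Of 14 genes described in immature or dedifferentiated beta cells, 10 were lower and 1 higher (median -2.67). Sox9, Vim, Cd81 and Hes1 were lower by -7.56, -5.75, -3.12 and -2.67, and several of them mark other pancreatic cells. Ccnd2, the cyclin known to drive beta cell growth after birth, was the member that was higher, at 1112, 1035 and 1240 CPM against 539, 538 and 642 CPM. Of 18 cell cycle genes 5 were lower, near the share of all genes (29.9%), and 13 did not pass. Mcm6 led the lower ones at -1.69. Without mouse 1 there were 5 higher and 4 lower. At least 3 cell cycle genes were seen in 28 members (3.28%), and in 7 (0.820%) after thinning.

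Genes of interferon response and MHC class I were lower for 18 of 20 (median -1.64). B2m stood at 74.3, 58.8 and 53.8 CPM against 414, 393 and 414 CPM (-2.73 ± 0.10, adjusted p = 1.62e-11), and Bst2, H2-D1, H2-K1 and H2-Q4 were lower by -3.44, -1.35, -2.27 and -1.42. Against alpha-gated barcodes 7 of 20 were lower and 2 higher, with B2m at 137, 115 and 138 CPM there (-1.08 ± 0.14). Against delta-gated barcodes 6 were lower and 1 higher. B2m did not pass there (0.18 ± 0.15, adjusted p = 0.39), while H2-K1 and H2-D1 were lower by -0.80 and -0.81. Of 10 islet autoantigen genes, 7 were higher and 3 did not pass (4 higher without mouse 1 and 4 without mouse 2), with Chga at 9472, 9264 and 10854 CPM against 3912, 5414 and 5732 CPM. Against alpha-gated barcodes 2 were higher and 2 lower. Of 23 antioxidant genes 5 were higher and 7 lower, near the shares of all genes (25.0% and 29.9%). Nqo1 was higher by 2.58 and Prdx6 by 0.70, while catalase (Cat), Prdx4 and Txnip were lower by -3.40, -1.57 and -0.92. Of 18 immediate-early genes, which rise during dissociation, 13 were lower and 3 higher. Klf4 stood at 31.2, 18.4 and 35.7 CPM against 227, 187 and 302 CPM, and Fos at 1482, 1380 and 2475 CPM against 2867, 2683 and 3711 CPM, with mouse 3 highest in both classes.

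Alpha-gated barcodes numbered 173, 332 and 1064 per mouse. Members, alpha-gated, delta-gated and hormone-low barcodes entered 1 fit and share the member sums. Against alpha-gated barcodes 2574 of 13565 genes were higher (19.0%) and 2602 lower (19.2%), 38.2% in all. Plut stood at 115, 170 and 154 CPM against 2.197, 1.22 and 0.639 CPM (7.02 ± 0.31, adjusted p = 7.60e-09). Trpm5, Npy, Pcsk1 and Tmem215 followed with 6.66, 6.64, 6.49 and 6.43. The Npy call was lost without mouse 2 or mouse 3, at 6.39 and 5.65. Irx1 led the decreases, at 0, 0.616 and 0.400 CPM against 140, 198 and 165 CPM, and Pdk4 and the endothelin gene Edn3 were lower by -7.57 and -7.40. Slc30a8 stood at 763, 876 and 742 CPM in alpha-gated barcodes and did not pass (0.22 ± 0.14, adjusted p = 0.23). Of 28 ER folding genes 19 were higher and 2 lower, and of 21 processing genes 9 were higher and 5 lower.

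Against delta-gated barcodes (74, 141 and 552) 2402 genes were higher (17.7%) and 2393 lower (17.6%), 35.3% in all. Angptl7 led the increases, at 94.98, 133 and 118 CPM against 0.816, 1.19 and 0.358 CPM (7.54 ± 0.32, adjusted p = 3.25e-10), followed by Bace2, Tmem215, Tmigd3 and T2 (6.65 to 6.88). Acot7, a fatty acyl thioesterase gene and one of the genes kept low in beta cells, stood at 0, 1.08 and 0.600 CPM against 65.3, 66.8 and 78.7 CPM. Ppp1r17, Spock3, Ly6h and Cbln4 were lower by -6.26 to -6.02. Slc30a8 was far apart here, at 22.9, 22.1 and 15.02 CPM in delta-gated barcodes (5.61 ± 0.18). Of 28 ER folding genes 20 were higher and 2 lower. Of 17 transcription factor genes 4 were higher and 5 lower, with Isl1 at 453, 534 and 494 CPM in delta-gated barcodes (-1.55 ± 0.14).

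Against hormone-low barcodes (152, 353 and 734) 4101 genes were higher (30.2%) and 4605 lower (33.9%), 64.2% in all. T2, Tmigd3, the protease gene Prss53, Trpm5 and Tmem215 led the increases, by 6.91 to 6.11. Prss53 stood at 642, 644 and 697 CPM against 8.83, 11.0 and 7.32 CPM. No Sbspon UMI was found in any member, while hormone-low barcodes stood at 149, 113 and 63.0 CPM. Its call was lost without mouse 3 (adjusted p = 0.10). Msmp, Cp, Krt17 and Crp were also at 0 or within 1.69 CPM in members. Of 21 processing genes 20 were higher and 1 did not pass, and of 17 transcription factor genes 16 were higher.

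Among the members themselves, Npy and Pyy varied more than genes of like mean such as Mafa and Slc2a2. The Fano factor, variance over mean and near 1 for counting alone, was computed after thinning to 3000 UMIs for 531 genes with a mean of at least 0.2 UMIs. Its median was 1.118, 1.10 and 1.11 in mice 1, 2 and 3, and 23 genes passed 2 in every mouse. For a given relative spread the Fano factor lies nearer 1 at a lower mean, so it is compared only between genes of like mean. The 23 genes included Malat1, 8 mitochondrially encoded genes, the acinar genes Ctrb1, Try4 and Try5, and Iapp. Npy, the neuropeptide Y gene, had a Fano factor of 4.97, 9.13 and 7.50 at a mean of 0.990, 0.560 and 0.509 UMIs. Pyy, of the same peptide family, had 4.41, 7.13 and 11.3. Pyy is also on the list of gamma cell markers. Summed over members Pyy stood at 467, 734 and 543 CPM, against 19400, 12168 and 35207 CPM over all other barcodes. Doublets were kept for these Fano factors and for the shares of UMIs below. The part of RNA from other cells in the spread of Npy and Pyy was not tested. Mafa, at a like mean of 1.11, 0.833 and 0.895 UMIs, had 1.74, 1.30 and 1.30, and Slc2a2 had 1.11, 1.33 and 1.43. Npy and Pyy were picked after their values were seen.

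The UMIs of Npy sat in few members. The 10% of thinned members with most Npy held 68.4%, 79.7% and 86.3% of its UMIs (78.1% ± 9.04, SD, n = 3), against 33.0% ± 2.19 for Slc2a2, 38.6% ± 2.28 for Mafa and 18.3% ± 0.902 for Iapp. Genes of low mean reach high values by counting alone, as Pdx1 shows with 55.5% ± 4.63 at a mean of 0.240 to 0.297 UMIs. A Npy UMI was seen in 31.2%, 21.5% and 17.2% of thinned members and in 10.0%, 6.04% and 2.01% of thinned hormone-low barcodes. Summed over members Npy stood at 506, 622 and 650 CPM, and over all other barcodes at 428, 84.0 and 30.5 CPM. The other barcodes were high in mouse 1, where hormone-low barcodes stood at 1212 CPM, and the difference did not pass (2.57 ± 1.32, adjusted p = 0.25).

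**Figure D4:**
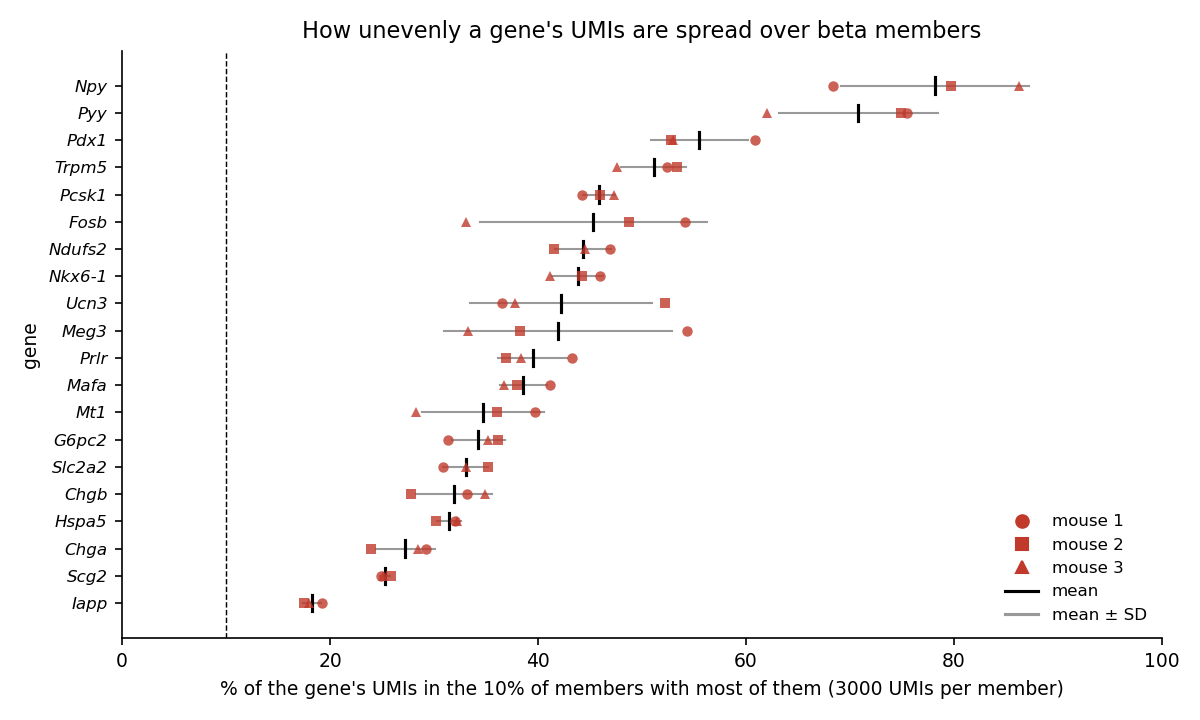
Percent of a gene's UMIs held by the 10% of members with most of them, after thinning each member to 3000 UMIs, for 20 genes seen in at least 15% of members in every mouse; 1 point per mouse, black bar the mean, grey line the SD, dashed line the even share. Npy and Pyy lie highest and Iapp lowest at 18.3%.

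Members were split at the median insulin share of their own mouse (60.8%, 65.3% and 62.8%) to see how other genes varied with it. This is a range of one class and not 2 types, and no test was made. Members above the median were also deeper, with 77572, 59882 and 42415.5 UMIs against 22129.5, 13280 and 29670.5 below it, and had fewer mitochondrial UMIs (2.46%, 1.93% and 2.25% against 5.68%, 3.66% and 4.88%). The part of depth in these differences was not tested beyond thinning. Of 3129 genes of at least 50 CPM, 37.2% were higher and 18.6% lower above the median in all 3 mice. The median log2 ratio of all these genes was 0.06, and 0.14 after thinning.

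Among 23 ER folding genes 18 were higher above the median in all 3 mice and 1 lower, with a median log2 ratio of 0.33, and 0.33 after thinning. Sdf2l1 stood at 476, 593 and 433 CPM above and 218, 357 and 211 CPM below the median, and Pdia6, a disulfide isomerase gene, at 996, 1410 and 978 against 632, 851 and 558 CPM. Of 19 processing genes 13 were higher, with Pcsk1 at 0.35, 0.43 and 0.58. Their median was 0.27, and 0.19 after thinning, where it lay near the 0.14 of all genes. The oxidative phosphorylation genes of the nucleus were higher for 15 of 19 (median 0.20, and 0.52 after thinning), whereas all 13 mitochondrially encoded genes were lower (median -0.51), a share of UMIs that the lower mitochondrial content restates. The 6 marker genes of the rule moved little (median 0.09), with Mafa at 0.07, -0.03 and 0.10.

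**Figure D5:**
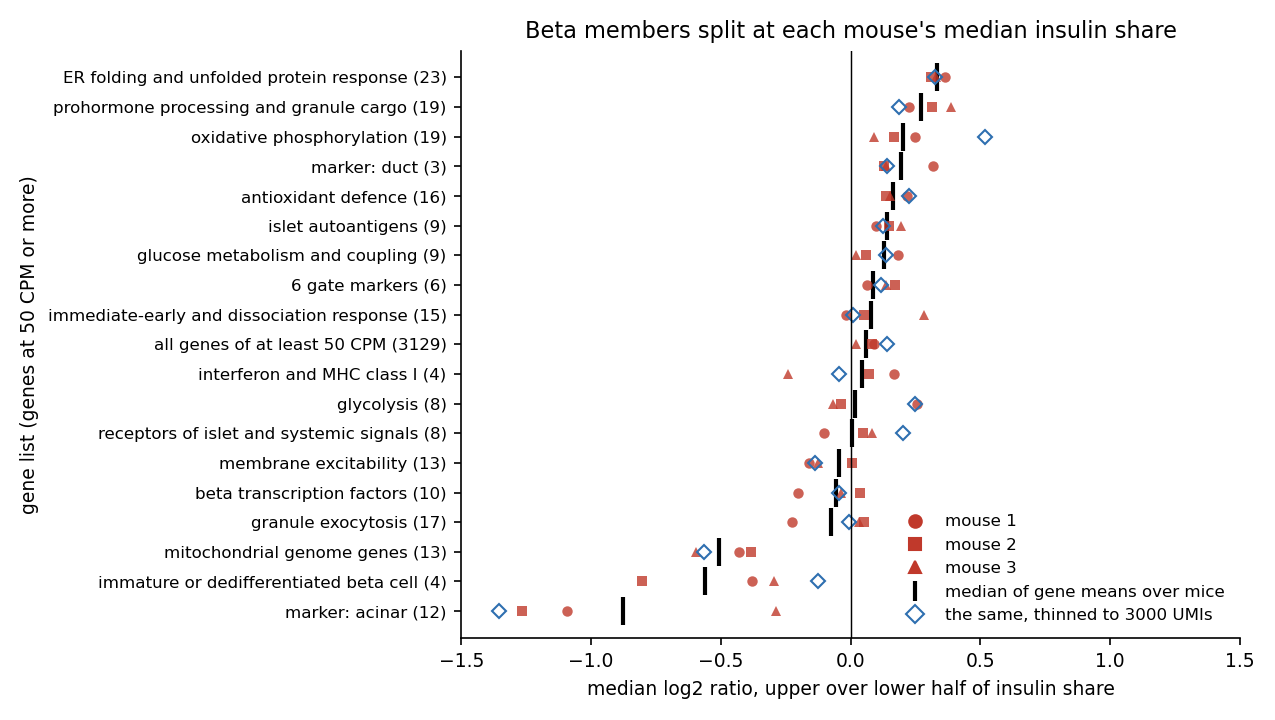
Median log2 ratio of members above over members below their mouse's median insulin share, for 18 gene groups and all genes of at least 50 CPM; 1 point per mouse, black bar the median of gene means over mice, open diamond the same after thinning. ER folding and processing genes lie to the right at 0.33 and 0.27, and mitochondrially encoded and acinar genes lie to the left.

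The members of the 3 mice resembled each other in most genes. Of 3004 genes of at least 50 CPM the median ratio of the highest to the lowest mouse was 1.21, and 76 (2.53%) passed 2-fold. Genes of acinar cells led, such as Sycn at 114, 499 and 21.96 CPM and Ctrb1 at 801, 4124 and 252 CPM, highest in mouse 2. Their 13 markers summed to 4022, 17935 and 1184 CPM in members and to 217436, 254841 and 19149 CPM in hormone-low barcodes. MHC class II genes were highest in mouse 3, with 11.0, 57.8 and 383 CPM in members against 1976, 4619 and 20129 CPM in hormone-low barcodes. In both cases the order of mice in members was that of the hormone-low barcodes of the same libraries, and the part of RNA from other cells in these values was not tested. Klf2, an early response gene, stood at 39.6, 57.4 and 127 CPM. Ribosomal and respiratory chain genes were also among those past 2-fold, lowest in mouse 3. Rpl38 stood at 1883, 1660 and 770 CPM and Cox7c at 734, 773 and 363 CPM in members. In all other barcodes Rpl38 stood at 2241, 1960 and 1021 CPM and Cox7c at 738, 746 and 421 CPM, so mouse 3 was lowest there too. Rpl38 and Cox7c were picked after their values were seen, and the cause was not tested.

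Markers of other cell types differed in how low they were in members. Alpha markers summed to 2175, 1801 and 2758 CPM, above the 1638, 1396 and 1378 CPM of hormone-low barcodes and below the 36406, 43897 and 44355 CPM of alpha-gated ones. At least 3 acinar markers were seen in 99.5% of members, at least 3 duct markers in 72.5% and at least 3 alpha markers in 40.7%. After thinning these shares were 58.1%, 2.58% and 2.11%, against 84.2%, 23.4% and 3.54% of hormone-low barcodes. Insulin took most of the 3000 UMIs in members and few in hormone-low barcodes. Members thus kept fewer UMIs of other genes, which lowers their thinned shares, so the 2 classes are not compared at equal depth here. The part of such RNA in the results was not tested. Endothelial markers summed to 17.1, 26.1 and 46.3 CPM, against 2056, 1801 and 3970 CPM in hormone-low barcodes. Macrophage markers summed to 56.2, 50.4 and 123 CPM against 1408, 1694 and 4764 CPM, and pericyte and fibroblast markers to 3.01, 48.7 and 27.8 CPM against 1393, 804 and 2990 CPM. Against all other barcodes 10 of 10 endothelial, 9 of 10 macrophage, 10 of 12 acinar, 8 of 9 alpha and 11 of 12 duct markers were lower. The acinar count fell to 1 without mouse 2 and to 2 of 13 without mouse 3. Of these lists, the markers that were higher were Krt7 of the duct list (0.95 ± 0.08) and Slc7a2 of the alpha list (0.23 ± 0.08). The Slc7a2 call was lost without mouse 1 or mouse 3, and Slc7a2 was lower than in alpha-gated barcodes (-0.81 ± 0.14). Of 10 lymphoid markers 8 had no UMI in any member. Cd79a, a B cell receptor subunit gene, was nonetheless higher in members, at 62.4, 22.5 and 71.7 CPM against 5.02, 3.59 and 5.20 CPM (3.46 ± 0.21, adjusted p = 1.55e-06), and a Cd79a UMI was seen in 28.1%, 14.5% and 35.2% of members, against at most 0.954% of the shallower hormone-low barcodes. After thinning to 3000 UMIs it was seen in 2.08%, 2.66% and 8.72% of members. The B cell genes Cd79b and Ms4a1 were at 0.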

How the data were processed

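Counts were used as deposited: per the file headers and the labels' protocols, each library is a matrix of whole-number UMI counts per gene and barcode for barcodes the authors had already selected. The submitters' processing notes name Cell Ranger 2.2 and mm10, and the matrix headers name software version 3.1.0. Members and gene lists were chosen with earlier results of these data known. Gates, sums and thinning (3000 UMIs, without replacement) used Python 3.11.15 and numpy 2.4.6. Doublets stayed in the main analysis. An alternative removed the highest Scrublet scores (scanpy 1.11.5) at 0.8% per 1000 barcodes, because the automatic threshold called only 9, 9 and 13 barcodes. Sums per mouse and class were tested by the quasi-likelihood test of edgeR 4.0.16 (R 4.3.3), after its default filter on low counts and TMM scaling, with robust dispersion and an FDR of 0.05. The mouse was a block because classes of 1 mouse come from the same animal. The 5 hormone genes were left out of library sizes and the 11 genes that define members were not tested. On simulated counts with 199 changed genes of 13569, the comparison with all other barcodes recovered 47.5% of 2-fold and 100% of 4-fold changes and called 0.0374% of unchanged genes. The simulated counts had the same spread for every gene and no difference in level between mice, and only genes above a minimum level were changed. These rates describe that setting and were not measured at the spread of the real counts. Named genes are the 10 (all other barcodes) or 5 (other classes) largest called changes per direction. These had to be changed alike in every mouse, by at least 1 on the log2 scale, with 50 CPM in the higher class and no numbered gene-model symbol. Up to 5 per list with the smallest p were added. Some genes the rule picks are not reported here. Genes outside it (Mnx1, Isl1, Pcsk1, Pcsk2, Ero1lb, Atf3, Herpud1 and those so marked) were chosen after their values were seen. Of 31053 gene IDs, 30934 matched GENCODE M21. Thinned shares rest on 1 fixed draw per barcode. Marker sums and the split by insulin share use CPM outside the hormone genes without TMM scaling.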

Additional observations from a re-analysis of the deposited data

How the results depend on the processing

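With each barcode thinned to 3000 UMIs, which also gave cells equal weight and left out shallower barcodes, 2460 genes were called against all other barcodes, 1628 against alpha-gated, 1551 against delta-gated and 3661 against hormone-low barcodes. Of these, 2360, 1552, 1453 and 3489 were among the 7564, 5176, 4795 and 8706 calls without thinning, and 250, 92, 63 and 168 of those calls had the opposite sign after it, whatever their p. The cause was not tested. Leaving out each mouse in turn gave 6324 to 7031, 3363 to 4628, 3108 to 4299 and 7347 to 8442 calls. Without mouse 2 the alpha and delta counts fell to 3363 and 3108. Without the replicate block the counts were 6222, 4322, 3988 and 8076. DESeq2 1.42.0, no filter on low counts, all genes in the library size, a doublet filter, no shared barcodes, at most 10% mitochondrial UMIs and at least 50% insulin each gave counts within 1.5 times. No gene picked by the naming rule changed direction where it had a value, which after thinning was 133 of 146 against all other barcodes and 9 of 10 against hormone-low barcodes. Members numbered 1127 with a minimum of 500 genes. Against all other barcodes the median of the cell cycle list ran from -0.47 to 0.21 and that of antioxidant genes from -0.13 to 0.01 over 13 settings other than thinning, with 0 to 5 cell cycle genes higher. Lower acinar markers ran from 0 (without the block) to 12.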
